A study of Mus musculus with 6 samples.

Results

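Th17 cells are CD4+ helper T cells known for making the cytokines IL-17A, IL-17F and IL-22, and 9 genes of that programme were followed here in Foxp3+ regulatory T cells with and without the transcriptional regulator Blimp1. They are the cytokine genes Il17a, Il17f and Il22, the transcription factor genes Rora, Hif1a and Ahr, and the cytokine receptor genes Il23r, Il1r1 and Il6ra. Every array probe annotated to these symbols was taken, which gave 15 of the 45281 probes of the table. Of the 9 genes, 5 had a probe bright enough to be tested, among 9593 tested genes.

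The cells were pTreg cells, regulatory T cells that arose outside the thymus, and some labels call them iTreg instead. Naive CD4+ T cells came from pooled lymph nodes and spleens of Blimp1-deficient donors (CKO, genotype C57BL/6Prdm1flox/floxCD4-Cre+, Thy1.2+) and Blimp1-sufficient donors (Ctrl, genotype Prdm1+/+CD4-Cre+, Thy1.1+). They had been injected together into RAG1-deficient mice, which have no mature T or B cells of their own. Both donors also carried a Foxp3-GFP reporter, by which CD4+ GFP+ cells were sorted some weeks later, and CD4-Cre deletes in all T cells rather than in regulatory T cells alone. Total RNA of 3 CKO and 3 Ctrl samples was hybridized to Illumina bead arrays. The labels do not say which recipients a sample came from, so the p-values measure the spread between these samples.

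Values are background-subtracted intensities in arbitrary units, normalized over the 6 arrays. An array's background level was the 95th percentile of 1504 probes for olfactory and vomeronasal receptors, which T cells do not use, and it lay between 6.18 and 9.55. Between 32.3% and 38.3% of probes were above it. Prdm1, the gene of Blimp1, gave 561, 341 and 704 on the arrays labelled CKO and 18.9, 50.9 and 49.2 on the Ctrl arrays. The position of that probe relative to the floxed exons is unknown here, so it is no check of the labels. Il10, whose expression in T cells is known to depend on Blimp1, fell, with 128, 99.2 and 106 in CKO against 5935, 3203 and 5904 in Ctrl cells (adjusted p = 0.0010 from limma). Of the T cell markers, 6 of 6 were above background on all arrays, with Cd4 itself between 17.2 and 62.8. Their summed intensity was 11654.5 to 15764 in CKO against 16762 to 23344 in Ctrl cells, without overlap. Taken singly, only Lat was without overlap, while Cd2, Cd3d, Cd3e, Cd3g and Cd4 overlapped between the groups. All 5 regulatory T cell markers were above background on every array as well, and their sums were 5494 to 6652 in CKO against 10612 to 14830 in Ctrl cells, again without overlap. Ctla4 and Tnfrsf18 make up most of these sums, and each was lower in CKO without overlap. So was Ikzf2, at 187, 490 and 181 in CKO against 792, 834 and 511 in Ctrl cells. Foxp3 and Il2ra overlapped between the groups, though Il2ra was lower in CKO in each pair. The 2 probes of Il2ra had log2 fold changes of -1.80 and -0.63.

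In a Th17 cell, IL-6 and IL-1 received through receptors encoded by Il6ra and Il1r1, and IL-23 received through the receptor encoded by Il23r, act together with STAT3 and the ROR nuclear receptors to switch on the neighbouring genes Il17a and Il17f. HIF-1α, which is stabilised when oxygen is low, favours glycolysis and is known to promote Th17 over regulatory T cell fate in mice. The aryl hydrocarbon receptor, a ligand-activated factor encoded by Ahr, is needed for much of the IL-22 made by Th17 cells. Foxp3+ cells of the mouse intestine can express part of this programme.

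Il17f, Il17a and Hif1a are the members that differed most between the genotypes, and the 250 bases before their start sites are shown because the regulators discussed here are known to read short words in such regions. Sequences are from RefSeq (GRCm38.p6) and run 5′ to 3′ on the strand of the gene. They are Il17f at chr1:20784271-20784520 on the minus strand, Il17a at chr1:20730655-20730904 on the plus strand and Hif1a at chr12:73907617-73907866 on the plus strand. Capitals mark AGGTCA, the half-site bound by ROR receptors, and ACGTG, the core bound by HIF-1, each on either strand, so that TGACCT and CACGT are their reverse forms.
Il17f: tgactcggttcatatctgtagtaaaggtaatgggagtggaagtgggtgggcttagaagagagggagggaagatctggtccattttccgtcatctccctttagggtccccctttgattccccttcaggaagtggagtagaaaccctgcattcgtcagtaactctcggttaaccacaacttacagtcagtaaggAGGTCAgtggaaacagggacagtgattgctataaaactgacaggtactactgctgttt
Il17a: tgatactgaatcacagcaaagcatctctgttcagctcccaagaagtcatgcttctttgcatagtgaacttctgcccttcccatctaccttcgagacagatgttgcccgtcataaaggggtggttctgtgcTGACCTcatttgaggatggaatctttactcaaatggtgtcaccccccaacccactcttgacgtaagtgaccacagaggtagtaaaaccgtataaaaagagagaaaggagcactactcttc
Hif1a: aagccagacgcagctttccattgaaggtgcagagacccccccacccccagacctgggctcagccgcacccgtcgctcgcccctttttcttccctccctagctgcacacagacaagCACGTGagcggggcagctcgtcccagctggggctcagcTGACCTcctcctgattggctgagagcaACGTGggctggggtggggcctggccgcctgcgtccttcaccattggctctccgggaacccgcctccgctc

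Over windows of 250 bases before to 50 after the start site, 8 of the 9 members matched the RefSeq table. AGGTCA was found in Il17f, Il17a, Hif1a and Il23r, which is 4 of 8 genes, and in 16.3% of 32851 such windows. ACGTG was found in Hif1a, Rora, Il1r1 and Il6ra, against 19.6% of windows. GAAAGT, a core of the sequence that Blimp1 binds, was found in Il17f, Il23r and Il1r1, against 14.3% of windows. The Il17f match lies 28 bases into the transcribed part, at chr1:20784231-20784250 with its surrounding bases, and in that stretch capitals mark GAAAGT.
Il17f after the start: cttagaaGAAAGTacttcct
A match is a description of letters and says nothing of binding in these cells. No match of one word overlaps that of another in the sequences shown, but CACGTG in Hif1a is a match on both strands.

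Il17f, whose product forms homodimers and pairs with IL-17A, was brighter on every CKO array than on any Ctrl array. Its single probe gave 1806, 912 and 561 in CKO replicates 1, 2 and 3 against 189.6, 264 and 311 in the Ctrl replicates. The CKO values span a wide range, led by replicate 1, which has the lowest value among the Ctrl samples. The means were 1093 ± 642 in CKO and 255 ± 61.2 in Ctrl cells (SD, n = 3 each), and from means of log2 values Il17f was 3.90-fold higher. The log2 fold change was 1.96 (standard error 0.43), and its adjusted p was 0.16 from limma, so it did not pass the threshold of 0.05 over all genes. It met the thresholds of the study's methods, which ask for 1.5-fold or more at an unadjusted p below 0.05 and were met by 7.42% of the tested genes in either direction. The study drew Il17f and Hif1a from these same samples, so their direction is not independent evidence.

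Il17a, the cytokine gene that gives Th17 cells their name, was higher in CKO than in Ctrl cells in each of the 3 pairs, by very unequal amounts. Its probe gave 357, 464 and 417 in CKO replicates 1, 2 and 3 against 93.6, 273 and 354 in the Ctrl replicates. The groups just fail to touch, since the lowest CKO value stands beside the highest Ctrl value. In the values as deposited they overlap, with 346 for CKO replicate 1 and 359 for Ctrl replicate 3. The means were 413 ± 53.8 in CKO and 240.3 ± 133 in Ctrl cells (SD, n = 3 each). The log2 fold change was 0.98 (95% interval -0.11 to 2.06), with an adjusted p of 0.69 from limma, so a difference of Il17a was not shown and its interval holds 0 as well as values above that of Il17f. With the replicate number as a block Il17a met the methods' thresholds (unadjusted p = 0.020 from limma), but not the adjusted p (0.21). Without Ctrl replicate 1, the one dim Ctrl array, Il17a was 1.32-fold higher, against 1.97-fold over all arrays.

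**Figure D1:**
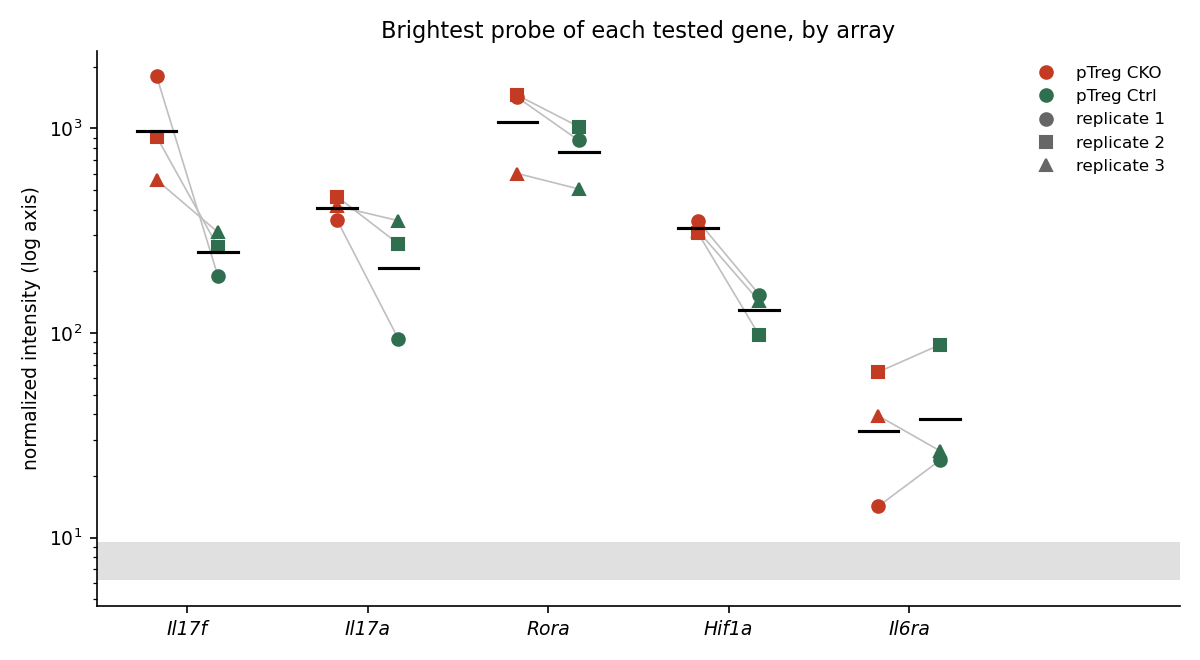
Normalized intensity (log axis) of the brightest probe of each of the 5 tested genes. Points are single arrays of pTreg CKO cells (left) and pTreg Ctrl cells (right), with a symbol per replicate, grey lines join samples of one replicate number, horizontal bars show the mean on the log2 scale, and background (6.18 to 9.55) is shaded grey. The CKO points of Il17f and Hif1a lie clear of their Ctrl points, those of Rora and Il6ra do not.

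Samples of one replicate number pair, as the labels of replicates 2 and 3 give each a shared day and the arrays of replicate 1 share a slide. In the pairs of replicates 1, 2 and 3, Il17f was higher in CKO by 3.25, 1.79 and 0.85 on the log2 scale. Il17a was higher by 1.93, 0.77 and 0.24 in the same pairs. For both cytokine genes the difference was thus widest in replicate 1 and narrowest in replicate 3. Within each pair the log2 difference of Il17f exceeded that of Il17a, by 1.32, 1.02 and 0.61, which was not tested. Whether the probe of one of these related genes can also take up transcript of the other was not tested.

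Replicate 1 stands apart in its labels and its slide. The labels of replicates 2 and 3 carry the letters P+I, which they do not spell out, and those of replicate 1 do not. Il2, a cytokine gene switched on by stimulation, gave 8597, 11086 and 6980 in CKO against 9308, 9867 and 13107 in Ctrl cells, and replicate 1 was the middle CKO value and the lowest Ctrl value. Of 12 genes expressed soon after stimulation, 11 were above background on all arrays, and their summed intensity was 37714 to 51949.6 in CKO and 35795 to 61298.5 in Ctrl cells, with overlap. Taken singly, Tnf was lower in CKO without overlap, at 2651, 2755 and 1438 against 3087, 3443 and 3155 in Ctrl cells. Egr1, Cd69 and Nr4a3 were lower and Egr2 and Myc higher in CKO in each pair, all with overlap between the groups. Ifng, Il2, Csf2, Egr3 and Ier3 had no common direction over the pairs. The part that stimulation has in the Il17a and Il17f values was not tested. The slide of replicate 1 holds 1 array of each genotype, so a test of a genotype effect that differs between the slides rests on a single pair there. It was passed by 0 of 9593 genes at an adjusted p of 0.05 from limma, while 233 genes (2.43%), Il17f and Il17a among them, had an unadjusted p under 0.05. Without both arrays of replicate 1, Il17f was 2.50-fold higher and Il17a 1.41-fold higher.

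Il22, whose product acts on epithelial cells, was above background on no CKO array, where its only probe gave -2.44, -2.65 and -7.63. In Ctrl cells it gave 7.29, -5.29 and -2.25, of which the first was just over the background of its array. No fold is given, and the array does not tell whether Il22 was made at a low level. Other cells, such as gamma delta T cells and innate lymphoid cells, also make these cytokines. They were looked for by 8 markers, which hold no receptor gene of gamma delta T cells. Fcer1g (92.6 to 1206), Il18r1 (313 to 684) and Kit (55.5 to 230.1) were above background on all arrays and Ncr1 and Klrb1c on none. The summed intensity of the 8 was 881, 839 and 1299.6 in CKO and 1409, 1053 and 1998 in Ctrl cells, lower in CKO in each pair. Fcer1g was dimmest in replicate 2 and brightest in replicate 3 of each group, as was the granulocyte gene S100a8. Il18r1 is also counted among the receptor partners below, so these sums are not particular to gamma delta T cells and innate lymphoid cells. Of 2 CD8 T cell markers, Cd8b1 gave 544 to 934 in CKO and 656 to 1031 in Ctrl cells, with overlap. It was lower in CKO in each pair, and Cd8a was above background on no array. The part of CD8 T cells and of these other cells in the cytokine values was not tested. In sorted bulk samples more cells of a type cannot be told apart from more RNA per cell.

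Hif1a, the oxygen-regulated subunit of HIF-1, was higher in CKO cells by more than 1 log2 unit in every pair, which among the tested members held for this gene alone. Its bright probe gave 353, 308 and 316 in CKO replicates 1, 2 and 3 against 154, 97.3 and 143 in the Ctrl replicates. The 3 CKO values lie close together, and all are above the highest Ctrl value. The means were 326 ± 24.0 in CKO and 131 ± 30.0 in Ctrl cells (SD, n = 3 each), a 2.53-fold difference with log2 differences of 1.20, 1.66 and 1.15 in the 3 pairs. Its log2 fold change was 1.34 (standard error 0.25), with an adjusted p of 0.11 from limma. With the replicate number as a block Hif1a rose, at an adjusted p of 0.031, and Il17f had 0.070 and Il17a 0.21 in that fit.

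The other probes of Hif1a do not show this difference. One gave -0.18, 2.77 and 3.49 in CKO and 0.25, 8.96 and 10.2 in Ctrl cells, above background on 2 Ctrl arrays and on no CKO array, so no fold is given for it. The remaining probe was above background on no array. The positions of the probes in the transcript are unknown here, so the 2.53-fold difference rests on 1 probe of 3. Averaging the bright probe with the one above background on 2 Ctrl arrays gave 1.61-fold (adjusted p = 0.32 from limma), a value lowered by construction, since most values of the dim probe were raised to the background level.

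Markers of macrophages and granulocytes, cells that also express Hif1a, had summed intensities of 12563, 1802 and 22226 in CKO and 23307, 2586 and 31814 in Ctrl cells. They came from 8 markers, of which 5 were above background on all arrays, led by the granulocyte genes S100a8 and S100a9, while Itgam and Adgre1 were above it on none. The sums, carried by S100a8 and S100a9, were lower in CKO in every pair, but in the pair of replicate 2 Lyz2, Cd14 and Ly6c1 were higher in CKO, by 1.05, 0.98 and 0.12 on the log2 scale. In the pairs of replicates 1 and 3 these 3 markers were lower in CKO. The part of these cells in the values of Hif1a was not tested.

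Rora, which encodes the nuclear receptor RORα of Th17 and innate lymphoid cells, was higher in CKO in each pair but not beyond the spread between replicates. Its bright probe gave 1418, 1453 and 602 in CKO replicates 1, 2 and 3 against 874, 1020.3 and 506 in the Ctrl replicates. Replicate 3 was dim in both groups, so the groups overlap although each CKO value exceeds its own Ctrl partner. The means were 1158 ± 481 in CKO and 800.0 ± 265 in Ctrl cells (SD, n = 3 each). The log2 fold change was 0.49 (95% interval -0.48 to 1.46), with an adjusted p of 0.90 from limma and 0.28 with the block. In the pairs it was 0.70, 0.51 and 0.25, so that the pair of replicate 1 again had the widest difference and that of replicate 3 the narrowest. A second Rora probe was above background on no array.

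**Figure D2:**
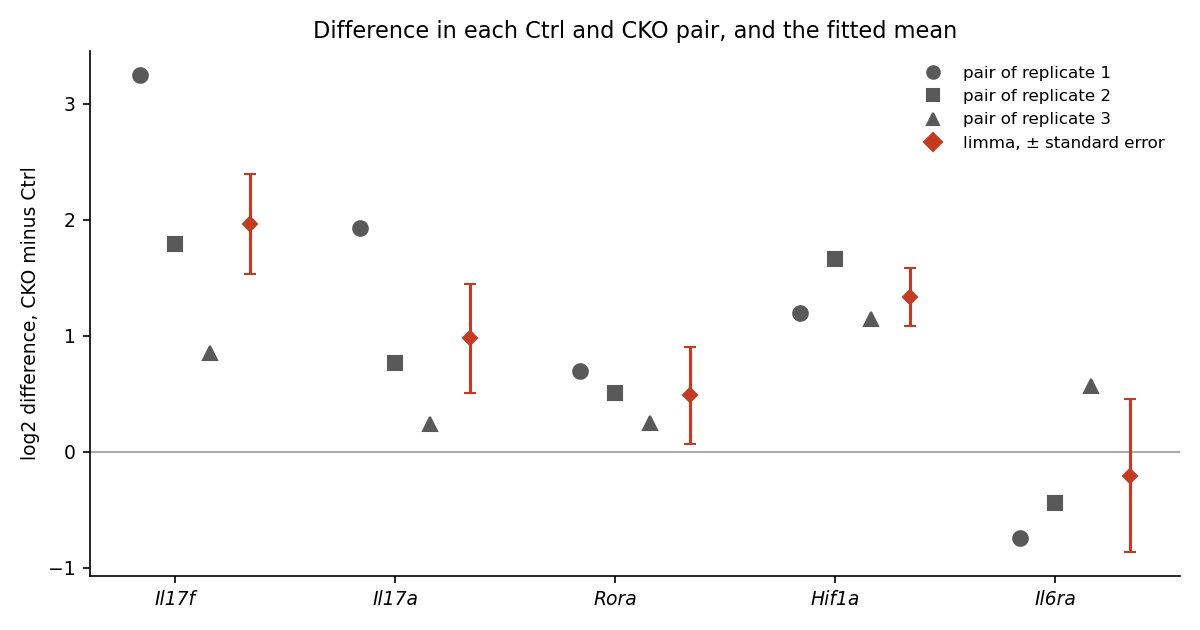
Difference in log2 intensity, CKO minus Ctrl, of the 5 tested genes in each pair of samples with one replicate number (grey symbols), beside limma's log2 fold change with its standard error (red diamonds). Il17f, Il17a and Rora have their widest difference in the pair of replicate 1 and their narrowest in that of replicate 3, and Il6ra lies on both sides of 0.

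Il17f, Il17a, Rora and Hif1a were higher in CKO in all 3 pairs, which is 4 of the 5 tested members, while 19.5% of all tested genes were. Of the 1872 genes that were higher in all pairs, 17.3% had the widest difference in the pair of replicate 1 and the narrowest in that of replicate 3, as 3 of these 4 members had. Il17f, Il17a and Hif1a did not overlap between groups, nor did 5.95% of tested genes with CKO higher. At the methods' thresholds 2 members, Il17f and Hif1a, were higher, beside 3.09% of tested genes, and 0 were lower, beside 4.34%. With the replicate block Il17a met them too, which makes 3 members, beside 4.75% of tested genes with CKO higher. None of the 5 passed an adjusted p of 0.05, which 0.271% of genes passed. With the replicate block 1 member, Hif1a, passed it, and 1.91% of genes did, 0.751% with CKO higher.

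Of the receptor genes, only Il6ra was bright enough to be tested. It encodes the IL-6-binding chain, and its brightest probe gave 14.2, 64.5 and 39.4 in CKO replicates 1, 2 and 3 against 23.8, 87.6 and 26.6 in the Ctrl replicates. Replicate 2 was the brightest in both groups and the ranges overlap. Il6ra was lower in CKO in the pairs of replicates 1 and 2 and higher in that of replicate 3, by -0.74, -0.44 and 0.57 on the log2 scale. The log2 fold change was -0.21 (95% interval -1.73 to 1.32), with an adjusted p of 0.98 from limma. A second Il6ra probe, with 6.97, 6.20 and 15.7 in CKO and 12.8, 20.4 and 11.7 in Ctrl cells, had the same signs by pair and was above background on 1 CKO and 3 Ctrl arrays. The remaining Il6ra probe was above background on 1 array.

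Il23r, the receptor chain through which IL-23 stabilises Th17 cells, was above background on no array, with values of -5.60, -4.77 and -2.54 in CKO and -0.86, -5.08 and -5.08 in Ctrl cells. Ahr was likewise above background on none, with 2.21, -2.48 and 7.57 in CKO and -1.57, 6.66 and 0.76 in Ctrl cells. Of the 2 probes of Il1r1, the receptor for IL-1 that primes Th17 cells, one reached 13.6 in CKO replicate 1 and was above background on no other array. It gave 6.53 and 1.22 in the other CKO replicates and 5.74, -2.26 and 3.48 in Ctrl cells. The other Il1r1 probe was above background on no array. These genes thus have only an upper limit here. Each of Il22, Il23r and Ahr rests on a single probe, and a low value of 1 probe does not show that the gene was silent.

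**Figure D3:**
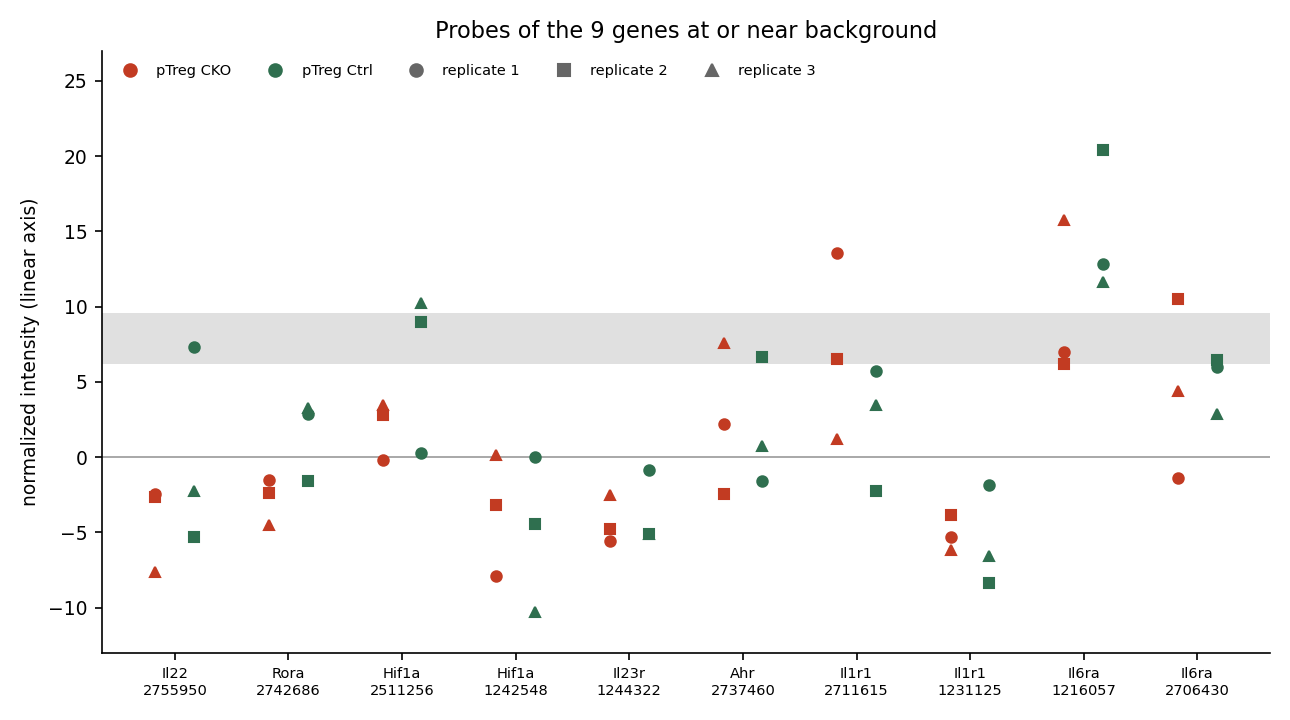
Normalized intensity (linear axis) of the 10 probes of the 9 genes that were not above background on all arrays, 3 CKO arrays (left) and 3 Ctrl arrays (right) per probe. Background (6.18 to 9.55) is shaded grey, and the points of Il23r lie below it on all 6 arrays.

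Other genes of the pathway differed in both directions. Of 6 tested cytokine and chemokine genes that Th17 cells also make, 1 met the methods' thresholds, beside 7.42% of all tested genes in either direction. It was Lta, which encodes lymphotoxin alpha, at 667 ± 189 in CKO against 262 ± 49.9 in Ctrl cells (SD, n = 3 each; adjusted p = 0.16 from limma, 0.051 with the block). Its 2 probes had log2 fold changes of 1.17 and 1.33. Il21, a cytokine that amplifies Th17 cells, had log2 differences of 1.21, 0.35 and -1.54 in the 3 pairs, which is no common direction. The median log2 fold change of the 6 genes was -0.14, and that of all tested genes was 0.018.

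Of 17 tested genes for receptor partners and their kinases, 3 were lower and 1 was higher in CKO at the methods' thresholds, beside 4.34% and 3.09% of all tested genes. None of the 17 passed the adjusted p without a block. The lower ones were Il1rn, the natural antagonist of the IL-1 receptor, Il6st, which encodes the signalling chain shared by IL-6 receptors, and the kinase gene Jak1. Il1rn fell with the block (adjusted p = 0.049 from limma), at 136 ± 45.2 in CKO against 362 ± 61.0 in Ctrl cells, but other Il1rn probes reached a log2 fold change of 0.17. Il6st gave 36.0, 24.9 and 26.5 in CKO against 79.2, 112 and 45.2 in Ctrl cells, with no overlap (adjusted p = 0.25 from limma, 0.070 with the block). Il1rap, the partner chain of Il1r1, was the higher one, at 41.6 ± 6.49 in CKO and 24.1 ± 5.84 in Ctrl cells (SD, n = 3 each). The 5 fitted probes of Il1rap had log2 fold changes from 0.14 to 0.80. Stat3, which relays IL-6 and IL-23 signals, gave 1153 ± 282 in CKO and 1575 ± 453 in Ctrl cells (SD, n = 3 each; adjusted p = 0.86 from limma). The 3 probes of Stat3 disagree, from -0.51 to 0.18. In all 3 pairs 10 of the 17 genes were lower, beside 18.1% of all tested genes, and their median log2 fold change was -0.35.

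Of 13 tested transcription factor genes of Th17 differentiation other than the members, 2 were higher and 1 was lower at the methods' thresholds. Of all tested genes, 3.09% were higher and 4.34% lower at these thresholds. Ikzf3, which encodes the Ikaros family factor Aiolos, gave 286 ± 133 in CKO against 625 ± 254 in Ctrl cells (SD, n = 3 each), was lower by 1.06, 1.18 and 1.21 on the log2 scale in the pairs, and fell in the fit with the block (adjusted p = 0.035 from limma). Its 3 probes disagree, from -1.15 to 0.089. Runx1 and Etv6, both genes of DNA-binding factors, had log2 fold changes of 0.82 and 0.62, with adjusted p-values of 0.51 and 0.49 from limma. The 2 probes of Runx1 had 0.33 and 0.82. None of 10 tested genes that restrain Th17 differentiation met the thresholds in either direction without a block. With the replicate block Tbx21 and Il2ra met them, both lower in CKO (unadjusted p = 0.021 and 0.035 from limma). Neither passed the adjusted p in that fit (0.21 and 0.27). Tbx21 had log2 differences of -0.46, -1.06 and -0.39 in the 3 pairs. In all 3 pairs 2 of the 10 genes were lower and 2 were higher. Foxp3, also among the 10 genes, differed by 0.034 on the log2 scale (standard error 0.51) in its brightest probe. Its 2 probes disagree, from -0.80 to 0.034.

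A wider Th17 signature shares Il17f, Il17a and Rora with the members. Of its 11 tested genes, 2 were higher (Il17f and Ccr6) and 2 lower at the methods' thresholds, beside 3.09% and 4.34% of all tested genes. Ccr6, the receptor that leads Th17 cells to CCL20, gave 3533, 4995 and 2274 in CKO against 528, 1935 and 208 in Ctrl cells, with no overlap, and rose in the fit with the block (adjusted p = 0.030, against 0.31 without it, from limma). The study also drew Ccr6 from these samples. Its difference was widest in the pair of replicate 3, at 3.45, in contrast to 0.85 for Il17f there. Ltb4r1, a leukotriene receptor gene, gave 125 ± 41.8 in CKO against 351 ± 69.1 in Ctrl cells, and Sgk1, a salt-sensitive kinase gene that favours Th17 cells in mice, gave 352 ± 46.7 in CKO against 844 ± 335 in Ctrl cells (SD, n = 3 each; adjusted p = 0.14 and 0.24 from limma). Cxcr6 fell with the block only (adjusted p = 0.038). The median log2 fold change of the 11 genes was -0.43.

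More targets of HIF-1 were higher than lower in CKO cells, and none passed the adjusted p without a block. Of 16 tested, 4 were higher and 1 was lower at the methods' thresholds, beside 3.09% and 4.34% of all tested genes. In all 3 pairs 9 were higher, beside 19.5% of all tested genes. Pfkl, a phosphofructokinase gene at the committed step of glycolysis, gave 1119.9, 997 and 1209.7 in CKO against 505, 405 and 568 in Ctrl cells and rose in the fit with the block (adjusted p = 0.034, against 0.13 without it, from limma), while its other probe had a log2 fold change of 0.28. Pgam1 and Tpi1, which encode glycolytic enzymes further down, gave 471 ± 52.9 in CKO against 248 ± 10.7 in Ctrl cells and 4685 ± 1686 in CKO against 2397 ± 358 in Ctrl cells (SD, n = 3 each), and Pfkp was the fourth. Slc2a3, a glucose transporter gene, was the lower one, at 222 ± 87.6 in CKO against 531 ± 46.7 in Ctrl cells (adjusted p = 0.18 from limma, 0.041 with the block). Ldha and Egln3, classical targets of HIF-1, had no common direction over the pairs. The median log2 fold change of the 16 genes was 0.42.

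**Figure D4:**
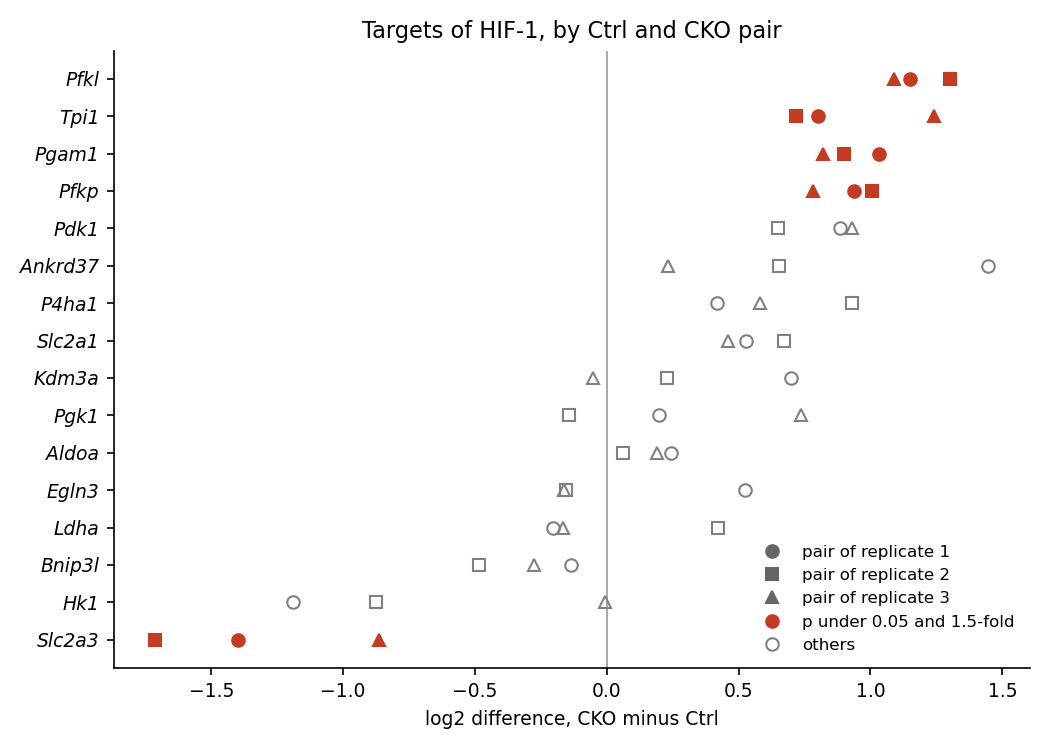
Difference in log2 intensity, CKO minus Ctrl, in each of the 3 pairs for the 16 tested targets of HIF-1. Filled red symbols are genes at the methods' thresholds, open symbols the others, and 9 genes lie right of 0 in all pairs.

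Genes that act on HIF-1α itself were compared as well. Of 10 tested partners, hydroxylases and other regulators of HIF, none met the methods' thresholds, and their median log2 fold change was -0.12. In all 3 pairs 3 were lower and 1 was higher in CKO, beside 18.1% and 19.5% of all tested genes. Ep300 was lower without overlap, by -0.63, -0.46 and -0.60 on the log2 scale in the pairs (adjusted p = 0.51 from limma). Cited2 was higher without overlap, by 0.96, 0.30 and 0.066 (adjusted p = 0.74 from limma). Arnt, which encodes the subunit that pairs with HIF-1α and with the aryl hydrocarbon receptor, gave 95.5, 43.0 and 80.2 in CKO against 68.7, 44.1 and 50.8 in Ctrl cells, with overlap, and its probes disagree, from -0.62 to 0.36. Egln1, the main oxygen-sensing hydroxylase that marks HIF-1α for breakdown, had differences of 1.66, -0.32 and -0.29 in the pairs.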

How the data were processed

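RNA of 6 sorted pTreg samples was amplified and hybridized to Illumina MouseWG 6v2 arrays. The authors deposited linear intensity values, exported from Genome Studio and quantile normalized. Between 35.4% and 36.0% of values per array are below 0, so background had been subtracted. The sorted values of 2 arrays were equal (within 0.02 plus 0.1%) for at least 97.1% of probes in the 3 pairs of one replicate number and the 4 other pairs on one slide, against 4.14% to 4.95% in the 8 pairs across slides, which points to a normalization within slides. No genome build enters the values.

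The 6 columns were quantile normalized together, raised to each array's background level and taken to log2. Probes above background on at least 2 arrays and with 1 gene symbol (14811) were kept, symbols were updated through gene identifiers of the RefSeq table (GRCm38.p6), and the brightest probe of each gene was compared with limma 3.58.1 in R 4.3.3 (lmFit, eBayes, no block), with Benjamini-Hochberg adjustment over 9593 genes. Genes are said to have risen or fallen at an adjusted p under 0.05. A fit over all 14811 probes gave the values of single probes. Precision is limited by the number of arrays, 3 a group. The steps were tested on simulated data.

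The pairing was checked on each sample's deviation from its group mean: over genes, these correlated by 0.51, 0.49 and 0.56 within replicate numbers 1, 2 and 3, and by -0.31 to -0.23 across numbers. Deviations cancel out within a group, so the negative values go with the positive ones and are no separate check. The slide of replicate 1 also enters its value. The members and lists were chosen with earlier results of these data known. Up to 4 genes per list were named, first by the adjusted p and the methods' thresholds, then by p. Stat3, Foxp3, Il21, Pfkp, Ldha, Arnt, Egln1, Egln3, Cxcr6 and Gpr15 were named after their values were seen. So were the receptor and early genes of other cells and the single markers of stimulation and of CD8 T cells. Alternatives in normalization, background, filter, probe choice, block, variance trend and samples were run.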

Additional observations from a re-analysis of the deposited data

How the results depend on the processing

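The log2 fold changes of Il17f, Il17a, Rora and Hif1a stayed positive under all 16 alternatives, at 1.32 to 2.36, 0.40 to 1.36, 0.19 to 0.90 and 0.69 to 1.46. Those without 1 array ranged from 1.52 to 2.36 for Il17f, from 0.40 to 1.36 for Il17a, from 0.19 to 0.90 for Rora, from 1.13 to 1.46 for Hif1a and from -0.69 to 0.40 for Il6ra. With no filter on dim probes, Il17f (1.96, adjusted p = 0.0076 from limma) and Hif1a (1.34, adjusted p = 0.015) passed the threshold, in a fit of 19057 genes. That fit takes in genes raised to the background level on all arrays. The standard error was 0.35 for Il17f, against 0.43 in the main fit, and 0.26 for Hif1a, against 0.25. These passes thus rest on the set of genes fitted and not on other values of Il17f or Hif1a. With the replicate block Hif1a passed (1.34, adjusted p = 0.031 from limma). The block also brought Il17a, but no other member, to the methods' thresholds (0.98, unadjusted p = 0.020). Il6ra turned to 0.40 without CKO replicate 1, to 0.39 without Ctrl replicate 2 and to 0.063 without both arrays of replicate 1. No fold is read from the second Hif1a probe, whose fitted value of 0.038 is a difference between values at or near background and turned to -0.28 with no floor, to -0.017 without CKO replicate 2, to -0.17 without Ctrl replicate 1 and to -0.085 without both arrays of replicate 1. The cause was not tested.

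Over all genes, 26 passed the adjusted p and 712 the methods' thresholds. The first count was 42 with no floor, 150 with no filter, 183 with the replicate block, 16 with the slide as a block, and 1 to 14 without 1 array. Without both arrays of replicate 1 limma gave 0 genes, with 677 at an unadjusted p under 0.05. The methods' thresholds were passed by 1154 genes with the block. Dim signal limits Il22, Il23r, Ahr and Il1r1, of which no fold can be given.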

Other observations

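Of 6 tested partners and targets of the aryl hydrocarbon receptor, none met the methods' thresholds. Tiparp, a target that dampens the receptor, gave 9.15, 5.01 and 14.0 in CKO and -2.29, 3.56 and 3.44 in Ctrl cells, above background on 2 CKO arrays and on no Ctrl array. Gpr15, which encodes a receptor that leads T cells to the large intestine and depends on Ahr in mice, had log2 differences of -0.011, -0.89 and 0.58 in the pairs of replicates 1, 2 and 3.

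The genes whose log2 values followed Il17f most closely over the 6 arrays were Etv6, Ece1 and Rdh9, with Pearson's r of 0.993, 0.993 and 0.992. Those closest to Il17a were Ric1, Xrcc1 and Gigyf2 (0.999, 0.996 and 0.994), and those closest to Hif1a were Daglb, Lrpprc and Leo1 (0.995, 0.989 and 0.989). These are descriptions over 6 arrays, some of which share a genotype, slide or day, chosen as the best of 9593 genes. Between the members themselves, r was 0.85 for Il17f with Hif1a and 0.66 for Il17f with Il17a.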
